A study of Mus musculus with 8 samples.

Results

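The 7 genes *Abca12*, *Pnpla1*, *Abhd5*, *Cyp4f39*, *Elovl1*, *Elovl4* and *Slc27a4* carry out acylceramide synthesis and the loading of lamellar bodies, and their messenger RNA was measured by RNA-seq in epidermis of newborn mice labelled as control or as lacking *Rora* in the epidermis. They were chosen by name as genes of this pathway, through the Ensembl identifiers of the count table and the symbols of the GENCODE mouse annotation, and they are 7 of 55416 genes in the table. All 7 were among the 13147 genes that passed the filter on low counts, with between 1609 and 24961 counts per library and gene, so none passed through 1 genotype alone. None of the 7 passed the cutoffs of the study for a difference between genotypes, which 5.51% of all genes tested did. *Elovl1* had the largest difference, a log2 fold change of -0.56, and its adjusted p was 0.253.

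RORα, the product of *Rora*, is a nuclear receptor that binds DNA at sites containing AGGTCA. The libraries were made from dorsal (back) skin epidermis on postnatal day 4 (P4), with 4 libraries labelled WT (control replicates A1 and B1, with C1 and C6) and 4 labelled as epidermis *Rora* knockout (here *Rora* EKO, replicates A3 and B4, with C2 and C3). In *Rora* EKO mice a *Rora* flox/flox allele was recombined by Cre under the KRT14 promoter, which is active in basal keratinocytes and their descendants, including hair follicle and sebaceous gland cells. Whether the control mice carried the flox allele or Cre is not stated, and no group received a treatment. The back skin was heated briefly and the epidermis peeled off the dermis, and poly(A) RNA was sequenced from stranded libraries. The samples are described as 4 mice per genotype, though no label names the animal behind a library, and the p-values measure the spread between these samples. Library totals ran from 17286903 to 26705533 counts.

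Acylceramides are ceramides whose very long fatty acid is hydroxylated at its far end and esterified with linoleic acid. They form the lipid lamellae between the dead cells of the stratum corneum and supply the lipids bound to the corneocyte envelope, and both are needed to hold water in the skin. ELOVL1 and ELOVL4 lengthen the fatty acid, CYP4F39 (the mouse counterpart of human CYP4F22) hydroxylates it, SLC27A4 (FATP4) activates fatty acids to acyl-CoA, PNPLA1 adds linoleate with the help of ABHD5, and ABCA12 moves glucosylated lipids into lamellar bodies. Inherited loss of several of these genes causes ichthyosis.

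The promoters are shown because they are where a receptor for AGGTCA could be sought in sequence alone, and no binding was measured. RefSeq promoter windows, 250 bases before to 50 bases after a start site, were found for all 7 genes, 8 windows in all with 2 for *Elovl1*, and each matched 1 place on its chromosome of GRCm39. AGGTCA was found on either strand in 2 of the 8 windows and in 16.3% of the 32851 windows of all genes. Both matches are printed here in capitals, and both read TGACCT on the strand shown, the reverse complement of AGGTCA.
Elovl1, second start site, GRCm39 chr4:118286648-118286947, + strand: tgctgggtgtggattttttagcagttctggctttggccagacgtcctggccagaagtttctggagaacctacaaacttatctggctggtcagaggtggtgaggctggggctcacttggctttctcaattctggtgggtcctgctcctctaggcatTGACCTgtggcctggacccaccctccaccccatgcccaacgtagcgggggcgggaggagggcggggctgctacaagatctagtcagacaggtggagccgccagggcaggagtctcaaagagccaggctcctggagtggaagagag
Abhd5, GRCm39 chr9:122180431-122180730, + strand: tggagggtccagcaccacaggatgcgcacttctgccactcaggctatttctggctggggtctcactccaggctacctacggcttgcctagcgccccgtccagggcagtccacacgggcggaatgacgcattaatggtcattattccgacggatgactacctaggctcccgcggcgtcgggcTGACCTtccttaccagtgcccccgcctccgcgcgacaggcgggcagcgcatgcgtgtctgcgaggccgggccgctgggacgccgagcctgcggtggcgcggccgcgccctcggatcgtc
The match began 95 bases before the start site in the *Elovl1* window and 69 bases before it in the *Abhd5* window. The repeat AGGTCANAGGTCA was in 0 of the 8 windows and in 0.0396% of all windows, and the longer ROR response element, in which an A/T-rich stretch precedes the half-site, was in 0 of the 8 and in 0.384% of all. The other 5 genes and the first *Elovl1* window held none of the 3 patterns, which says only that these letters are not in these windows. In the counts, the log2 fold changes between genotypes were -0.56 for *Elovl1* and 0.10 for *Abhd5*.

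The 8 libraries were first compared on genes that check their labels. *Rora* itself averaged 212 ± 66.6 counts per 1000000 counts (CPM, SD, n = 4) in control against 196 ± 34.6 CPM (SD, n = 4) in *Rora* EKO. Its adjusted p was 0.877 in the edgeR quasi-likelihood test, so the total of this gene does not check the genotype of a library. The counts are per gene and do not resolve the deleted exons. The study reports *Cers5* and *Cers6* as reduced in *Rora* EKO. As read here, both were lower in every *Rora* EKO library than in every control (*Cers5* at 5.01 to 6.69 against 11.1 to 17.4 CPM). Those are the same data, so this bears on the order of names in the header, while the genotype still rests on the label. *Xist*, which is transcribed from an inactive X chromosome, reached 416 CPM in control replicate C1 and 527 CPM in control replicate C6, and every other library had at most 0.0546 CPM. *Xist* was therefore not balanced between the groups. Granular keratinocyte markers, of the layer in which lamellar bodies are made, summed to between 10113 and 15193 CPM in control and between 9258 and 14331 CPM in *Rora* EKO. Spinous markers summed to between 45028 and 70981 CPM in control and to between 86356 and 107612 CPM in *Rora* EKO, and the sums did not overlap although 0 of 6 spinous markers passed the cutoffs singly. Basal markers were low throughout, from 188 to 506 CPM in control and from 223 to 1196 CPM in *Rora* EKO, where replicate B4 was highest. Per kilobase (kb) of transcript, *Krt14* was between 33.7 and 389 CPM and *Krt1* between 8019 and 21344 CPM, the suprabasal keratin being the higher in every library. Sebocyte marker sums did not overlap either, at 1385 to 2005 CPM in control and 2317 to 5777 CPM in *Rora* EKO. That sum does not stand for each of its 6 markers. *Elovl3*, 1 of them, had the lower mean in *Rora* EKO, at 17.3 ± 10.7 against 34.8 ± 42.1 CPM in control (SD, n = 4 each). Hair shaft markers ran from 2911 to 20933 CPM in control and from 6046 to 14849 CPM in *Rora* EKO. Summed adipocyte markers were between 59.4 and 301 CPM with *Plin1* and *Lep* at 3 counts or less in each library, and summed dermal fibroblast, endothelial and skeletal muscle markers were at 10.4 CPM or less. Langerhans cell markers summed to between 216 and 283 CPM over all libraries, T cell markers to between 10.1 and 45.7 CPM, melanocyte markers to between 16.9 and 55.7 CPM and erythroid markers to between 35.6 and 742 CPM. No tested marker of the 13 lists passed the cutoffs. The part of these differences in the values of the 7 genes was not tested, and in such bulk samples fewer cells of a type and less RNA per cell cannot be told apart.

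Genotypes were compared by edgeR, in its quasi-likelihood form, with Benjamini-Hochberg adjustment over all genes tested. A gene passed when it differed by more than 1.5-fold in either direction with an adjusted p under 0.05. Of the 7 genes, 0 passed, against 5.51% of the 13147 genes tested (2.30% higher and 3.22% lower in *Rora* EKO). At an unadjusted p of 0.05, 1 of the 7 (*Elovl1*) passed, against 18.2% of all genes. DESeq2, limma-voom and the likelihood ratio test also called 0 of the 7, against 7.84%, 5.31% and 7.67% of all genes. In none of the 7 did the 2 genotypes separate without overlap, which 12.9% of all genes tested did. The median log2 fold change was 0.00 over the 7 genes and -0.04 over all genes tested, with 4 of the 7 above 0 and 3 below.

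**Figure D1:**
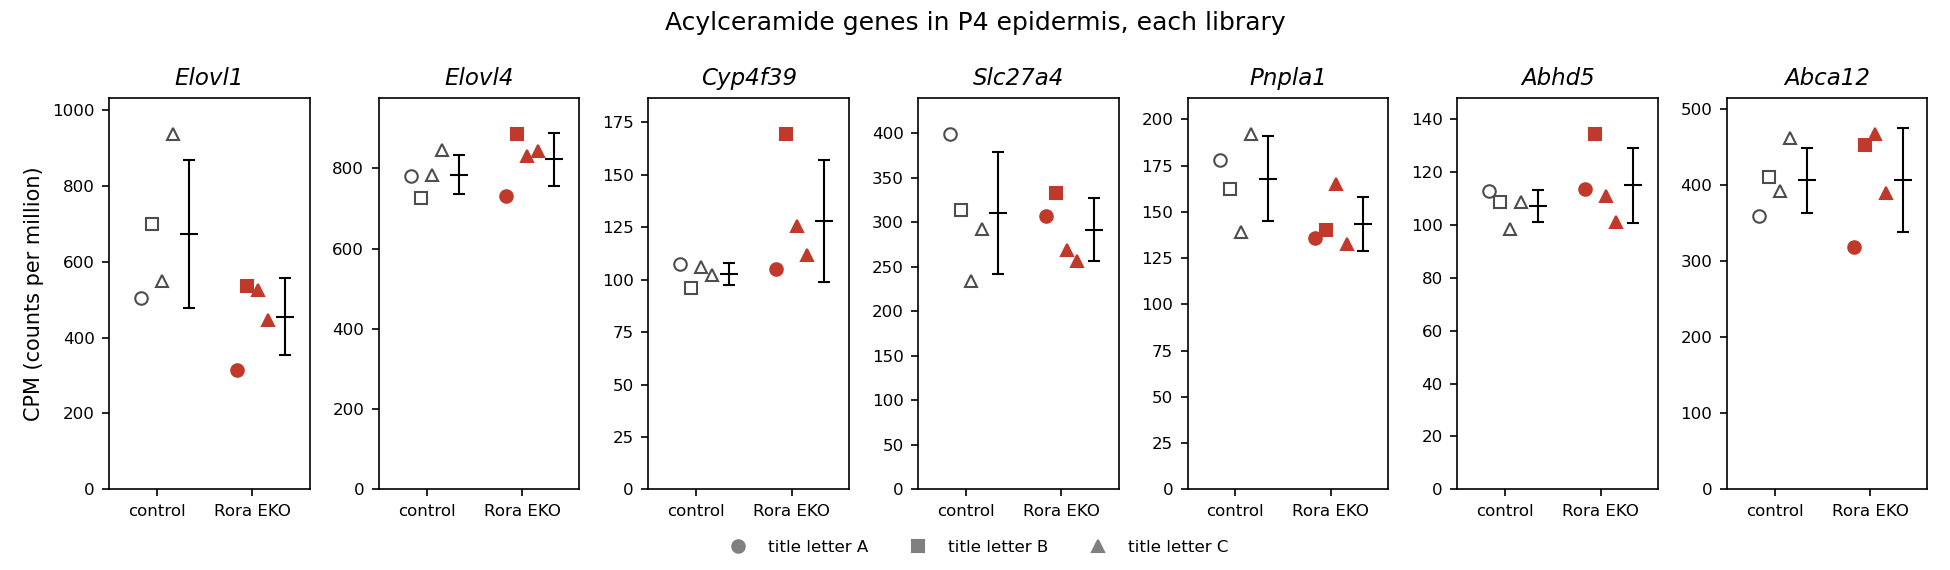
Level of each gene in CPM (vertical axes, each from 0) in the 4 control libraries (open symbols) and the 4 *Rora* EKO libraries (filled symbols), with symbol shapes for the letter of the sample title and black bars for the mean and SD. *Elovl1* in control ran from 505 to 937 CPM and in *Rora* EKO from 314 to 535 CPM, while in all 7 panels the genotypes overlapped.

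The elongases come first in the pathway. *Elovl1* (ENSMUSG00000006390; GRCm39 chromosome 4, 118284346 to 118290150, plus strand) encodes an elongase of saturated very long chain fatty acids that is expressed in many tissues. It was at 505, 699, 550 and 937 CPM in the controls (A1, B1, C1, C6) and at 314, 535, 524 and 447 CPM in the *Rora* EKO libraries (A3, B4, C2, C3). Control replicate C6 stood highest and *Rora* EKO replicate A3 lowest, and the genotypes overlapped only in that *Rora* EKO replicates B4 and C2 exceeded control replicate A1. The means were 673 ± 195 CPM (SD, n = 4) and 455 ± 102 CPM (SD, n = 4), a log2 fold change of -0.56 (standard error of the difference, SE, 0.267) or 0.676-fold, with an adjusted p of 0.253 in the edgeR quasi-likelihood test. The 95% interval from limma-voom ran from -1.10 to -0.03 and did not include 0, before any adjustment over genes. Without control replicate C6 the log2 fold change was -0.34 and without *Rora* EKO replicate A3 it was -0.37. Replicate C6 is also 1 of the 2 controls with *Xist*, and the log2 fold change was -0.36 over the 6 libraries without *Xist*, a comparison of 2 control with 4 *Rora* EKO libraries chosen after seeing the data. *Cdc20*, a cell cycle gene, overlaps *Elovl1* on the other strand and was at 2.24 ± 0.580 CPM (SD, n = 4) in control and 0.916 ± 0.809 CPM (SD, n = 4) in *Rora* EKO. Whether counting used the strand is not stated in the sources used here, and reads of overlapping genes cannot be told apart without it. The other 6 genes are each overlapped on the other strand by 1 or 2 long noncoding genes, 2 at *Pnpla1* and *Abhd5* and 1 at the rest.

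*Elovl4* (ENSMUSG00000032262; GRCm39 chromosome 9, 83660744 to 83688430, minus strand) encodes the elongase that makes the ultra long chains of acylceramides. Its level was 782, 727, 783 and 845 CPM in the controls (A1, B1, C1, C6) and 730, 887, 831 and 844 CPM in the *Rora* EKO libraries (A3, B4, C2, C3). The highest value was in *Rora* EKO replicate B4, the lowest in control replicate B1, and the ranges largely overlapped. The log2 fold change was 0.07 (SE 0.0742) with an adjusted p of 0.873 in the edgeR quasi-likelihood test, and the means were 784 ± 48.1 and 823 ± 66.2 CPM (SD, n = 4 each). Its SE was the smallest of the 7 on the log2 scale, and its 95% interval, from -0.23 to 0.36, lies within the 1.5-fold cutoff of 0.58. Without *Rora* EKO replicate A3 the log2 fold change was 0.18, and without replicate B4 it was 0.03.

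*Cyp4f39* (ENSMUSG00000061126; GRCm39 chromosome 17, 32671694 to 32712396, plus strand) encodes the cytochrome P450 that hydroxylates the far end of the ultra long acyl chain. It was measured at 108, 95.8, 106 and 102 CPM in the controls (A1, B1, C1, C6) and at 105, 170, 126 and 112 CPM in the *Rora* EKO libraries (A3, B4, C2, C3). The control libraries were close together, whereas *Rora* EKO replicate B4 stood above every other library and replicate A3 lay inside the control range. Means were 103 ± 5.21 and 128 ± 29.1 CPM (SD, n = 4 each), for a log2 fold change of 0.32 (SE 0.158) with an adjusted p of 0.343 in the edgeR quasi-likelihood test and a 95% interval from -0.06 to 0.63. Leaving out *Rora* EKO replicate B4 brought the log2 fold change to 0.15, and leaving out replicate A3 brought it to 0.46 with an adjusted p of 0.178. Replicate B4 was also the library with the most basal marker RNA (1196 CPM in sum) and sebocyte marker RNA (5777 CPM).

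*Slc27a4* (ENSMUSG00000059316; GRCm39 chromosome 2, 29692598 to 29710004, plus strand) encodes a fatty acid transport protein with acyl-CoA synthetase activity toward very long chains. The controls (A1, B1, C1, C6) had 400, 314, 235 and 292 CPM, and the *Rora* EKO libraries (A3, B4, C2, C3) had 308, 333, 269 and 256 CPM. Both the highest and the lowest library were controls, so the *Rora* EKO values fell inside the control range. The log2 fold change was -0.09 (SE 0.181) with an adjusted p of 0.876 in the edgeR quasi-likelihood test, a 95% interval from -0.46 to 0.32 and means of 310 ± 68.5 and 292 ± 35.3 CPM (SD, n = 4 each). Its sign rested on control replicate A1, without which the log2 fold change was 0.06, and without *Rora* EKO replicate C2 it was 0.02. It was -0.30 with *Xist* as a covariate (adjusted p = 0.409, edgeR) and -0.24 over the 6 libraries without *Xist*.

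*Pnpla1* (ENSMUSG00000043286; GRCm39 chromosome 17, 29077385 to 29109283, plus strand) encodes the transacylase that esterifies the hydroxylated ceramide with linoleate. It was at 178, 162, 139 and 192 CPM in the controls (A1, B1, C1, C6) and at 136, 140, 165 and 133 CPM in the *Rora* EKO libraries (A3, B4, C2, C3). Of the *Rora* EKO libraries, A3, B4 and C3 lay near or below the lowest control and C2 lay among the controls. With means of 168 ± 22.8 and 143 ± 14.8 CPM (SD, n = 4 each), the log2 fold change was -0.23 (SE 0.123) with an adjusted p of 0.447 in the edgeR quasi-likelihood test, and the 95% interval ran from -0.52 to 0.08. Without control replicate C6 the log2 fold change was -0.13, and without *Rora* EKO replicate A3 it was -0.15.

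*Abhd5* (ENSMUSG00000032540; GRCm39 chromosome 9, 122180621 to 122222936, plus strand) encodes CGI-58, the lipid droplet protein that activates PNPLA2 in triglyceride breakdown and serves PNPLA1 in acylceramide synthesis. The 8 values were 113, 109, 98.5 and 109 CPM in the controls (A1, B1, C1, C6) and 113, 134, 111 and 101 CPM in the *Rora* EKO libraries (A3, B4, C2, C3). Apart from *Rora* EKO replicate B4, the libraries of both genotypes lay in 1 narrow band. The log2 fold change was 0.10 (SE 0.0956) with an adjusted p of 0.748 in the edgeR quasi-likelihood test, from means of 107 ± 6.01 and 115 ± 14.1 CPM (SD, n = 4 each), and the 95% interval ran from -0.17 to 0.36. Without *Rora* EKO replicate B4 the log2 fold change was 0.02, and without replicate C2 it was 0.19.

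*Abca12* (ENSMUSG00000050296; GRCm39 chromosome 1, 71281435 to 71454069, minus strand) encodes the lamellar body lipid transporter whose loss in people causes harlequin ichthyosis. Levels were 360, 411, 393 and 462 CPM in the controls (A1, B1, C1, C6) and 319, 453, 468 and 390 CPM in the *Rora* EKO libraries (A3, B4, C2, C3). *Rora* EKO held both the highest and the lowest library, and the means were nearly equal at 406 ± 42.7 and 408 ± 68.2 CPM (SD, n = 4 each). The log2 fold change was 0.00 (SE 0.147) with an adjusted p of 0.998 in the edgeR quasi-likelihood test. The 95% interval, from -0.37 to 0.34, corresponds to between 0.773-fold and 1.27-fold.

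**Figure D2:**
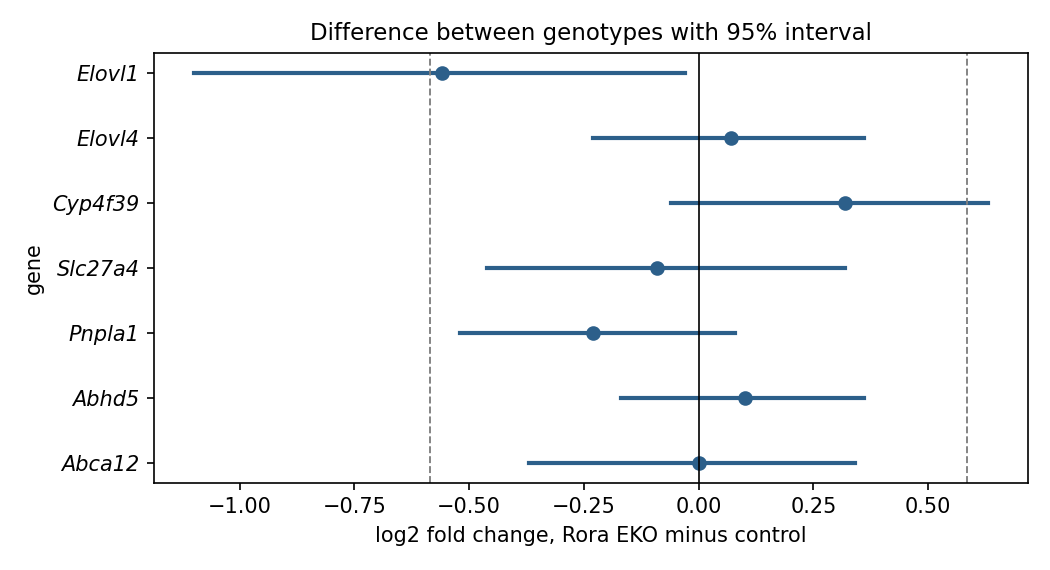
Log2 fold change of each gene, *Rora* EKO minus control (horizontal axis; points from edgeR, lines the 95% interval from limma-voom), with dashed lines at the 1.5-fold cutoff in each direction. The lines of *Elovl1* and *Cyp4f39* cross a dashed line, and that of *Elovl1*, from -1.10 to -0.03, is the only 1 of the 7 that does not cross 0.

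The intervals show how large a difference these 8 libraries allow. For 5 genes (*Elovl4*, *Slc27a4*, *Pnpla1*, *Abhd5* and *Abca12*) the whole interval lay within a 1.5-fold difference in either direction. For *Elovl1* it included a fall to 0.467-fold, and for *Cyp4f39* a rise to 1.55-fold.

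Compared per length, the genes fell into 2 tiers. With CPM divided by the kb of the canonical transcript, the control means of *Elovl1* and *Elovl4* were 352 ± 102 and 251 ± 15.4 CPM per kb (SD, n = 4 each), and their ranges overlapped each other but not those of the other genes. Then came *Slc27a4* at 47.5 ± 10.5, *Abca12* at 44.5 ± 4.68, *Cyp4f39* at 37.8 ± 1.91, *Pnpla1* at 37.5 ± 5.09 and *Abhd5* at 33.4 ± 1.87 CPM per kb (SD, n = 4 each). Within these 5, each gene overlapped the next in rank. In *Rora* EKO the tiers were the same, with *Elovl4* at 263 ± 21.2 and *Elovl1* at 238 ± 53.2 CPM per kb (SD, n = 4 each), again overlapping. The order within a tier and the gap between tiers depended on the length used. With the union of all annotated exons, *Elovl4* stood above *Elovl1* in control without overlap, at 251 ± 15.4 and 124 ± 35.8 CPM per kb (SD, n = 4 each), since the exons of *Elovl1* cover 5433 bases against 1910 in its canonical transcript. On that scale the lowest *Rora* EKO library of *Elovl1*, at 57.8 CPM per kb, was just above the highest of *Cyp4f39*, at 57.3. *Abhd5* then lay below *Abca12* without overlap in both genotypes. In control, all 7 genes were above 89.8% or more of the tested genes on the canonical scale, with *Elovl1* above 98.4%.

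**Figure D3:**
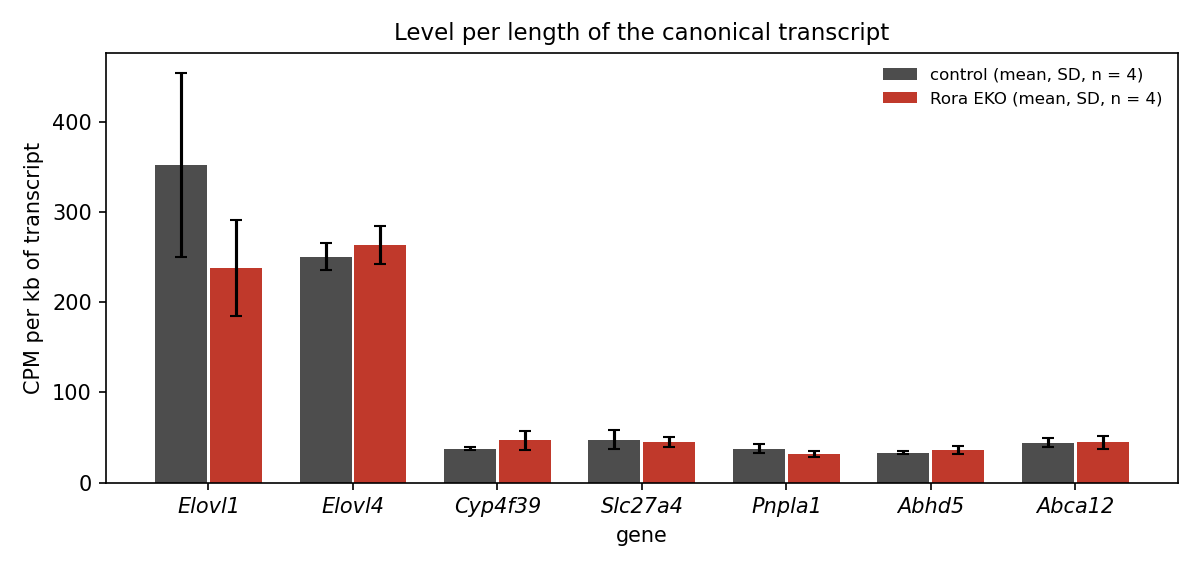
Level of each gene in CPM per kb of canonical transcript (bars, means of 4 libraries from 0; lines, SD) in control and *Rora* EKO. *Elovl1* and *Elovl4* stand between 238 and 352 CPM per kb, and the other 5 genes between 32.0 and 47.5 CPM per kb.

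Each gene except *Abhd5* was also set beside paralogs on the gene lists, on the same scale of CPM per kb of canonical transcript in control. *Elovl1* and *Elovl4* ranked first and second of 7 elongases, ahead of *Elovl7* at 34.8 ± 2.16 (SD, n = 4). *Slc27a4* was first of 6 SLC27A genes, with *Slc27a1* next at 2.93 ± 0.460 (SD, n = 4). *Cyp4f39* was first of 9 CYP4F genes, ahead of *Cyp4f13* at 4.13 ± 0.757 (SD, n = 4). *Abca12* was first of the 12 ABCA genes looked at, ahead of *Abca3* at 13.3 ± 3.03 (SD, n = 4). In all these families the lowest control library of the named member exceeded the highest control library of the runner-up. *Pnpla1* led the 4 PNPLA genes looked at (*Pnpla1*, *Pnpla2*, *Pnpla3* and *Pnpla5*, not the whole family) at 37.5 CPM per kb, and its lowest control library, at 31.03, was just above the highest of *Pnpla2*, at 30.01.

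Sample titles start with A, B or C, and the labels do not say what the letter stands for. Within letters, *Elovl1* was lower in *Rora* EKO each time, by log2 differences of -0.68 in A (1 library against 1), -0.39 in B (1 against 1) and -0.57 in C (2 against 2). *Pnpla1* was likewise lower within each letter, by -0.39, -0.21 and -0.14. *Abhd5* was higher within each, by 0.01, 0.31 and 0.03. The other 4 genes changed sign between letters, *Cyp4f39* from -0.04 in A to 0.82 in B and 0.19 in C. With the letter as a block, the log2 fold change of *Elovl1* was -0.58 with an adjusted p of 0.0900 (edgeR quasi-likelihood test), the smallest for any of the 7 under the 20 alternatives run.

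The libraries with the extreme values differed from gene to gene. *Rora* EKO replicate B4 held the highest value of 3 genes (*Abhd5*, *Cyp4f39* and *Elovl4*), and control replicate C6 that of *Pnpla1* and *Elovl1*. *Rora* EKO replicate A3 held the lowest value of *Abca12* and *Elovl1*. Profiles were compared by the root mean square difference of log2 CPM over the 8 libraries, after centring each gene on its mean. The most alike pair was *Abhd5* and *Elovl4*, at 0.131, and the least alike was *Cyp4f39* and *Elovl1*, at 0.523. Among all tested genes the nearest profiles were not those of other members. Members are very few among the tested genes, so this was likely beforehand and cannot show whether members vary together. The nearest profiles were *Icmt* (0.131) and *Mex3c* (0.139) for *Elovl1*, *Memo1* (0.0422) and *Senp6* (0.0513) for *Elovl4*, and *Hdac4* (0.0805) and *Selenok* (0.0823) for *Cyp4f39*. For *Slc27a4* they were *Hbp1* (0.0512) and *Hadha* (0.0648), for *Pnpla1* *Ube2b* (0.0610) and *Gas2l1* (0.0860), and for *Abhd5* *Psmd3* (0.0453) and *Paxip1* (0.0457). The median distance from a member to all tested genes lay between 0.325 for *Elovl4* and 0.522 for *Elovl1*. These distances are descriptions, over 8 libraries whose depth and tissue composition every gene shares.

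Around the 7 genes, 11 lists of other genes of the pathway held 103 genes, of which 83 were tested. Of these, 2 rose and 7 fell at the cutoffs, or 10.8% of those tested against 5.51% of all genes. These shares were 3.61% and 2.30% over the 6 libraries without *Xist*, and 7.23% and 3.59% with *Xist* as a covariate. The lists were chosen with earlier results of these data known, so the shares are descriptions and do not test the pathway. The median log2 fold change was 0.01 against -0.04 over all genes. A further 2 genes passed an adjusted p of 0.05 but not the fold change cutoff, making 11 of 83 against 6.03% of all genes. *Slc27a1*, *Abca3* and *Abca7*, paralogs of the 7 genes, were among the 9.

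**Figure D4:**
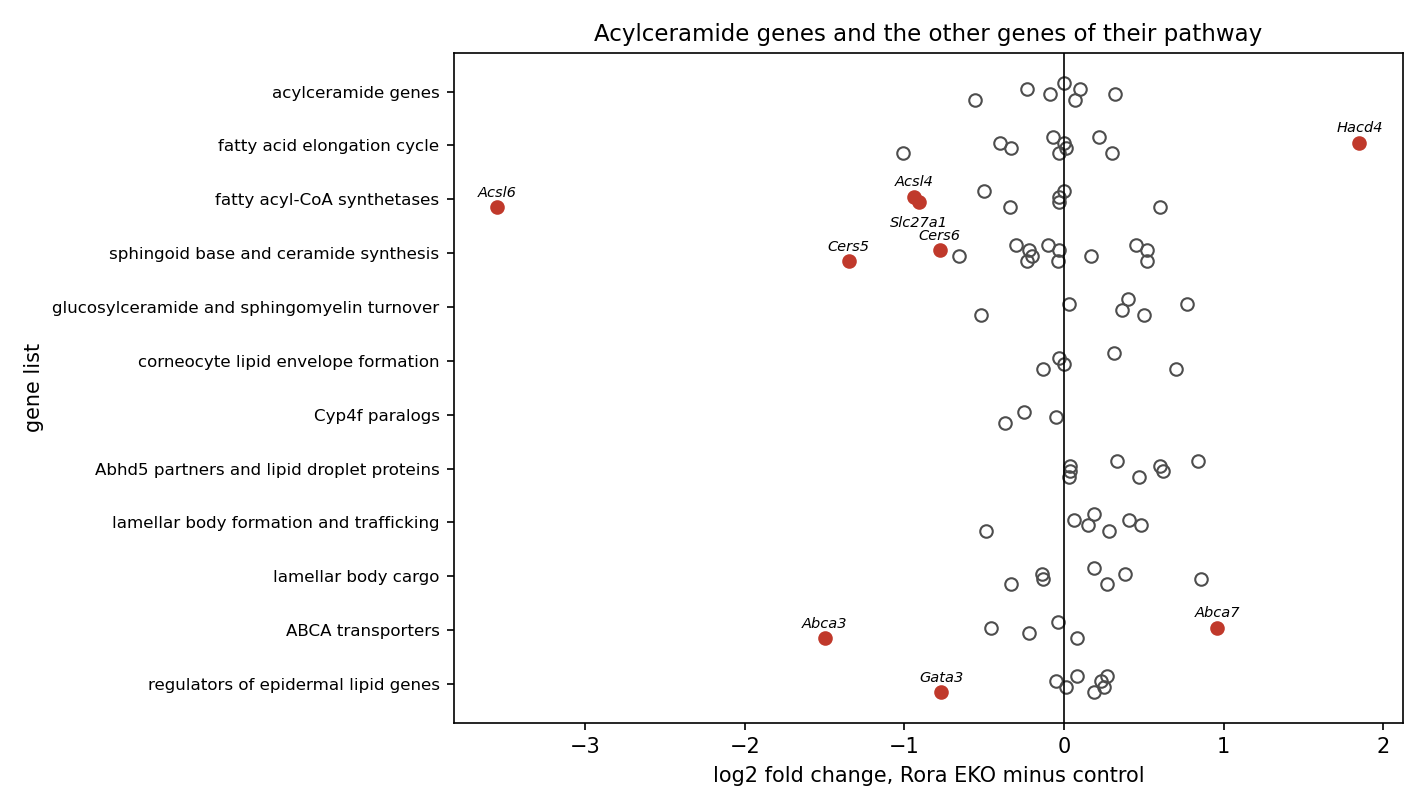
Log2 fold change, *Rora* EKO minus control (horizontal axis), of the 7 acylceramide genes (top row) and of the tested genes of the 11 lists (1 point per gene; vertical offsets within a row have no meaning), with genes past both cutoffs filled and named. None of the 7 is filled, against 9 of the 83 others, from *Acsl6* at -3.55 to *Hacd4* at 1.85. The lists were chosen with earlier results of these data known.

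Among the genes of fatty acid elongation, 1 of 10 tested rose, 0 fell, and the median log2 fold change was -0.01. The riser was *Hacd4*, a dehydratase of the cycle, at 0.322 ± 0.205 CPM in control and 1.17 ± 0.300 CPM in *Rora* EKO (SD, n = 4 each; adjusted p = 0.0440, edgeR quasi-likelihood test), which rests on 4 to 30 counts per library. The most abundant were *Tecr*, the reductase of the last step (238 ± 18.3 and 189 ± 27.3 CPM, SD, n = 4 each; adjusted p = 0.243, edgeR quasi-likelihood test), and *Elovl7* (189 ± 11.8 and 190 ± 23.2 CPM, SD, n = 4 each; adjusted p = 0.988, same test).

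Of 9 acyl-CoA synthetases tested, 3 fell and 0 rose, and the median was -0.34. *Slc27a1*, a paralog of *Slc27a4*, was at 17.9, 14.7, 12.7 and 17.5 CPM in the controls (A1, B1, C1, C6) and at 8.09, 5.42, 10.02 and 10.04 CPM in the *Rora* EKO libraries (A3, B4, C2, C3). Every *Rora* EKO value lay below every control value, and the log2 fold change was -0.91 (adjusted p = 0.0355, edgeR quasi-likelihood test). *Acsl4*, which prefers arachidonic acid, fell by 0.94 on the log2 scale, from 19.4 ± 1.88 to 10.2 ± 1.72 CPM (SD, n = 4 each; adjusted p = 0.00568, same edgeR test). *Acsl6* fell from 15.5 ± 8.84 to 1.32 ± 1.26 CPM (SD, n = 4 each; adjusted p = 0.0352, same edgeR test), and 1 *Rora* EKO library held none of its counts. The most abundant synthetases gave *Acsl1* at 331 ± 84.0 and 330 ± 44.0 CPM and *Acsbg1* at 362 ± 107 and 257 ± 61.7 CPM (SD, n = 4 each), with adjusted p of 0.999 and 0.316 (edgeR).

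Of 14 genes of sphingoid base and ceramide synthesis tested, 2 fell (*Cers5* and *Cers6*, ceramide synthases that use shorter acyl-CoA) and 0 rose, with a median of -0.15. *Cers3*, the ceramide synthase that takes the ultra long acyl-CoA of this pathway, was at 104, 128, 107 and 154 CPM in the controls (A1, B1, C1, C6) and at 85.3, 175, 156 and 139 CPM in the *Rora* EKO libraries (A3, B4, C2, C3). *Rora* EKO replicate A3 lay below all controls, B4 and C2 above them and C3 among them, and the log2 fold change was 0.17 with a 95% interval from -0.39 to 0.64 (adjusted p = 0.780, edgeR quasi-likelihood test). *Cers5* was at 14.7 ± 2.69 and 5.80 ± 0.689 CPM and *Cers6* at 16.7 ± 3.37 and 9.72 ± 1.01 CPM (SD, n = 4 each), with adjusted p of 0.00182 and 0.0278 (edgeR). *Degs1*, the desaturase that finishes ceramide, was the most abundant with *Cers3*, at 111 ± 7.57 and 159 ± 37.8 CPM (SD, n = 4 each; adjusted p = 0.112, edgeR). *Sptlc2*, a subunit of serine palmitoyltransferase, had an adjusted p of 0.0303 (edgeR) but a log2 fold change of 0.52, under the cutoff of 0.58.

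Of 6 genes of glucosylceramide and sphingomyelin turnover, none passed both cutoffs and the median was 0.38. *Ugcg*, the synthase of the glucosylceramide that ABCA12 loads, was at 178, 168, 156 and 166 CPM in the controls (A1, B1, C1, C6) and at 208, 231, 272 and 234 CPM in the *Rora* EKO libraries (A3, B4, C2, C3). The genotypes did not overlap, yet the log2 fold change of 0.50 (adjusted p = 0.0440, edgeR quasi-likelihood test) was under the fold change cutoff. *Smpd1*, acid sphingomyelinase, gave 349 ± 45.4 and 244 ± 37.6 CPM and *Psap*, the precursor of saposins, 231 ± 25.0 and 237 ± 18.9 CPM (SD, n = 4 each), with adjusted p of 0.0957 and 0.946 (edgeR).

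In the ABCA family 1 of 6 tested genes rose and 1 fell, and the median was -0.13. *Abca3*, the lamellar body transporter of lung surfactant and a paralog of *Abca12*, was at 68.3, 94.98, 71.8 and 109.9 CPM in the controls (A1, B1, C1, C6) and at 27.7, 22.6, 41.4 and 30.4 CPM in the *Rora* EKO libraries (A3, B4, C2, C3). All 4 *Rora* EKO libraries lay below all 4 controls, and the log2 fold change was -1.50 (95% interval -1.98 to -1.02, adjusted p = 0.00409, edgeR quasi-likelihood test). *Abca7* went the other way, from 21.1, 19.0, 19.2 and 23.8 CPM in the controls (A1, B1, C1, C6) to 29.5, 49.5, 40.8 and 41.4 CPM in the *Rora* EKO libraries (A3, B4, C2, C3). Again the genotypes did not overlap, and the log2 fold change was 0.96 (95% interval 0.57 to 1.31, adjusted p = 0.00802, edgeR quasi-likelihood test). *Abca5*, next of the ABCA genes looked at per kb after *Abca12* and *Abca3*, was at 36.0 ± 18.3 and 26.2 ± 12.2 CPM (SD, n = 4 each; adjusted p = 0.648, edgeR).

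Downstream, 0 of 5 genes of corneocyte lipid envelope formation passed, with a median of 0.00. *Tgm1*, the transglutaminase of the envelope, was at 299 ± 60.1 and 487 ± 73.7 CPM (SD, n = 4 each) with an adjusted p of 0.0578 (edgeR), and *Aloxe3*, which acts on the product of the ALOX12B lipoxygenase in acylceramide oxidation, at 268 ± 116 and 268 ± 117 CPM (SD, n = 4 each; adjusted p = 0.999, edgeR). Likewise 0 of 7 genes of lamellar body formation and trafficking passed (median 0.19), where *Nipal4* had an adjusted p of 0.189 and *Rab11a* of 0.591 (edgeR). Lamellar body cargo gave 0 of 7 (median 0.19), with *Cdsn*, corneodesmosin, at 2366 ± 1141 and 2844 ± 799.9 CPM and *Klk7*, a protease of desquamation, at 1366 ± 128 and 1560 ± 276 CPM (SD, n = 4 each).

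Of the partners of *Abhd5* and lipid droplet proteins, 0 of 8 tested passed, and 4 more did not pass the filter on low counts. All 8 tested had log2 fold changes above 0, from 0.03 to 0.84 (median 0.40, against -0.04 over all genes tested). The summed sebocyte markers were also higher in every *Rora* EKO library, at 2317 to 5777 CPM against 1385 to 2005 CPM in control. The marker *Elovl3* in that sum had the lower mean in *Rora* EKO. The part of sebocytes in the values of the 8 genes was not tested. The most abundant, the lipases *Lipe* and *Mgll*, had adjusted p of 0.577 and 0.551 (edgeR). Of the other CYP4F genes 3 of 8 were tested and 0 passed (median -0.25), with *Cyp4f13* at an adjusted p of 0.555 and *Cyp4f17* of 0.946 (edgeR). Of 8 regulators of epidermal lipid genes tested (median 0.13), 0 rose and 1, *Gata3*, fell, from 126 ± 36.3 to 74.3 ± 8.64 CPM (SD, n = 4 each; adjusted p = 0.0493, edgeR), a log2 difference of -0.77, and *Klf4* and *Zfp750* had adjusted p of 0.448 and 0.449 (edgeR).

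Leaving out 1 library or changing the fit ended several of these calls. *Cers5*, *Abca3*, *Acsl4* and *Abca7* passed the cutoffs whichever library was left out. Over the 6 libraries without *Xist*, *Cers5* and *Abca3* were the 2 of the 9 that passed, and *Acsl4* and *Abca7* had adjusted p of 0.0762 and 0.0517 (edgeR). With *Xist* as a covariate over all 8 libraries, *Hacd4*, *Slc27a1*, *Acsl6* and *Cers6* were lost, at adjusted p of 0.117, 0.0859, 0.114 and 0.145 (edgeR). With limma-voom *Acsl6* and *Gata3* were lost, at adjusted p of 0.0661 and 0.0513. *Gata3* was also lost with RLE size factors, at 0.0532, and *Hacd4* with library size alone, at 0.0594 (edgeR). Within title letter C *Hacd4*, *Slc27a1* and *Gata3* were lost, at 0.349, 0.221 and 0.115 (edgeR). *Gata3* was lost at 0.0584 when genes with at least 1 count were kept and at 0.0524 when at least 10 counts were required in every sample, a filter under which *Hacd4* and *Acsl6* were not tested (edgeR). In all, *Gata3* passed in 7 and *Hacd4* in 8 of the 20 alternatives. *Hacd4* was lost without *Rora* EKO A3, B4, C2 or C3 or control A1, B1 or C6, at adjusted p of 0.0509 to 0.133, and *Slc27a1* without *Rora* EKO A3, C2 or C3 or control A1, B1 or C6, at 0.0556 to 0.0913 (edgeR). *Acsl6* was lost without *Rora* EKO A3, C2 or C3 or control B1, C1 or C6, at 0.0569 to 0.0870, and *Cers6* when any library but control A1 was left out, at 0.0594 to 0.0954 (edgeR). *Gata3* was lost when any library but control C6 was left out, at 0.0352, where the fold change was too small, to 0.181 (edgeR).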

How the data were processed

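RNA-seq counts of 8 libraries of P4 mouse epidermis were analysed. The authors trimmed reads, mapped them to GRCm39 with STAR 2.5.3a and deposited the expected counts of RSEM for 55416 Ensembl genes, without scaling for depth or length. The annotation release and the strand setting of the counting are not given in the sources used here. The header holds 8 sample names and no name for the identifiers, and the names were read in order as those of the 8 value columns. The header line ends in an empty cell. Read with that cell kept, the names would shift by 1 column, the first name would stand over the identifiers and the last value column would have none. The assignment of values to libraries rests on the first reading, under which *Cers5* and *Cers6* were lower in *Rora* EKO, as the study reports. Under the shifted names, the *Cers5* values 17.4, 11.1 and 14.3 CPM would stand under knockout names. The values 5.81, 5.01 and 6.69 CPM would stand under WT names, which is not the direction the study reports. Expected counts were rounded to whole numbers. Symbols, coordinates and lengths came from GENCODE release 39 of the mouse, in which 54749 identifiers were found, and promoter windows from RefSeq (GRCm38.p6), located on GRCm39 by exact match of their sequence.

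Genes were filtered with filterByExpr and scaled with TMM factors. The main test was the quasi-likelihood test of edgeR 4.0.16 (legacy form) in R 4.3.3 without covariates. Intervals came from limma-voom (limma 3.58.1). Each standard error was taken from the spread of log2 CPM (prior count 2) among the 4 libraries per genotype. A floor of 3 counts was 0.113 to 0.196 CPM, and floors cover counting error only. DESeq2 1.42.0, other scalings, tests, filters and cutoffs, title letter, *Xist*, title letter C alone and leaving out each library were alternatives, and the 6 libraries without *Xist* were added after seeing the data. The text names the 7 genes, *Rora*, *Xist*, and in each list the genes past the cutoffs and the most abundant 2 by mean CPM. It also names the 2 nearest profiles per gene, except those of *Abca12*, which are not reported here, and *Cdc20*, *Cers3*, *Ugcg* and *Sptlc2* where a result touched them. Further genes appear as paralogs or markers. The members and lists were chosen with earlier results of these data known. The scripts were tested on simulated data. Protein motifs were not examined here, and lipid and protein measurements were not analysed here.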

Additional observations from a re-analysis of the deposited data

Results flagged for a closer look

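The gap between an extreme library and its neighbour, as a share of the range of its group of 4, was compared with Dixon's 95% critical value in 14 groups (7 genes in 2 genotypes), of which chance alone would mark about 1 in 20. It was exceeded in 0 groups, and with 4 libraries a group only an extreme gap exceeds it. The largest share was 0.762, for *Pnpla1* in *Rora* EKO replicate C2.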

How the results depend on the processing

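None of the 7 genes passed the cutoffs under any of the 20 alternatives that refit the model. Under these, between 2.30% (libraries without *Xist*) and 7.84% (DESeq2) of all genes tested passed. At such shares, 0 of 7 does not show that the 7 genes were unchanged. Without the fold change cutoff, none passed an adjusted p of 0.05 or 0.1 in the edgeR test of the report, and over the alternatives the smallest adjusted p was 0.0900 (*Elovl1*, title letter as a block, edgeR), which is under 0.1. Of 140 log2 fold changes recomputed for single genes, 8 changed sign, all of them of *Abca12*, which was at 0.00, or of *Slc27a4*. *Abca12* went to -0.05 with library size alone, which shifted the median gene by -0.05 too, to -0.01 with limma-voom and to -0.01 with the title letter as a block, and ran from -0.05 to 0.16 over the fits that left out 1 library, where *Slc27a4* ran from -0.20 to 0.06. Over all alternatives *Slc27a4* ran from -0.30 to 0.06. *Elovl1* stayed below 0, from -0.68 to -0.34. The number of pathway list genes past the cutoffs, 9, was 15 at an adjusted p of 0.1 with no fold change cutoff, 3 over the libraries without *Xist* (3.61% of those tested, against 2.30% of all genes) and between 4 and 7 with 1 library left out, where it was 4 without *Rora* EKO replicate C2, *Rora* EKO replicate C3 or control replicate B1, or 4.76% to 4.82% against 3.37% to 3.81% of all genes. The causes were not tested. The genotypes share no replicate number, so the title letter was the block available for a paired fit, and with it 10 of the 83 pathway list genes and none of the 7 passed, against 7.60% of all genes.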
